A study of Mus musculus with 12 samples.

Results

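Zfp36, Zfp36l1 and Zfp36l2, which encode RNA decay factors of 1 family, and Rhob with its paralogs Rhoa and Rhoc, which encode small GTPases, were followed in germ cells and somatic cells of the fetal mouse ovary after exposure to dexamethasone (dex), a drug that activates the glucocorticoid receptor. The 6 genes were taken by their symbols from a table of 54532 genes, of which 36214 had at least 1 count. RNA was sequenced from 12 libraries of ovaries collected at embryonic day E15.5, 3 in each of 4 groups. Dams carrying the embryos received 10 µg dex per g of body weight, or an equal volume of saline, by 1 intraperitoneal injection on each of the embryonic days E12.5 to E15.5. All embryos of the 4 groups carried the Pou5f1-EGFP transgene (strain label Tg(Pou5f1-EGFP)2Mnn), in which Pou5f1 (OCT4) regulatory sequence drives green fluorescent protein in germ cells. The germ saline and germ dex libraries held the sorted GFP-positive cells, and the soma saline and soma dex libraries held all GFP-negative cells, which are a mixture of several cell types. Each library was a pool of ovaries from more than 1 litter, so a library is not an individual embryo, and the ovaries were digested with trypsin at a warm temperature before sorting.

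ZFP36 proteins bind AU-rich stretches in the 3′ untranslated regions of messenger RNAs and recruit the CCR4-NOT deadenylase, which shortens the poly(A) tail and leads to decay of the message. Many of the messages they bind encode cytokines and early response factors, and Zfp36 itself is an early response gene whose own message holds AU-rich stretches. RHOA, RHOB and RHOC are close relatives that switch between a GTP-bound and a GDP-bound state and act on the actin cytoskeleton. Of these, RHOB is the short-lived, inducible member, and RHOC and RHOA are the more stable ones.

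Each library held between 14658503 and 18245507 counted fragments. Levels within a gene are given as CPM, the counts scaled to library size with TMM factors, and levels between genes as FPKM, which are also divided by gene length. The 10 germ cell markers summed to between 4712 and 5715 CPM in the germ libraries and to between 37.4 and 71.2 CPM in the somatic libraries, with higher sums after dex than after saline in the somatic cells. In the germ cells the sums were lower after dex, at 4908, 4712 and 4899 CPM against 5554, 5198 and 5715 CPM in saline. Of the 10 markers, 1 was called in germ cells, Kit, which was lower, against 0.208% of all tested genes. The part of this shift in the germ changes was not tested. Pou5f1 and Dppa3 were at 0 in all 3 soma dex libraries. The 10 pregranulosa markers summed to between 1276 and 1634 CPM in the somatic libraries and to between 32.7 and 144 CPM in the germ libraries, with germ dex replicate 2 the highest of these. The 9 stromal markers summed to between 20197 and 26330 CPM in the somatic libraries. The erythroid sum ranged most widely among the somatic libraries, from 3329 to 16535 CPM.

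The messages of the 3 Zfp36 genes were read for the element that their own proteins bind. In the 3′ untranslated region of each gene, taken from the transcript in which that region is longest (GENCODE M21, GRCm38), the heptamer TATTTAT occurred 3 times in Zfp36, 3 times in Zfp36l1 and 3 times in Zfp36l2. It did not occur in Rhoa, Rhob or Rhoc, although the shorter pentamer ATTTA occurred 3 times in Rhoa and 4 times in Rhob. Of 21045 genes with such a region, 27.6% held at least 1 heptamer and 10.4% held 2 or more. The 9 matches are printed as 25 bases of the message's strand, 5′ to 3′, with the heptamer in capitals, because they are the stretches by which the family could act on its own messages. All 3 genes lie on the minus strand.
Zfp36, 575 bases after the stop codon: tgggcccttTATTTATgacgacttt
Zfp36, 590 bases after the stop codon: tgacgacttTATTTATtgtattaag
Zfp36, 615 bases after the stop codon: attttatagTATTTATatatattgg
Zfp36l1, 1150 bases after the stop codon: atcaaaacgTATTTATtgccaaact
Zfp36l1, 1191 bases after the stop codon: ttttgttcaTATTTATcgggatgac
Zfp36l1, 1405 bases after the stop codon: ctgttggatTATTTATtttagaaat
Zfp36l2, 822 bases after the stop codon: tatttaactTATTTATtatcttgtg
Zfp36l2, 870 bases after the stop codon: tccatactgTATTTATcgagtatga
Zfp36l2, 1056 bases after the stop codon: tgtatgtaaTATTTATttcattaat
No 2 heptamers overlapped. Among 34 AU-rich transcripts listed as bound or destabilised by ZFP36 proteins, 31 held the heptamer, which follows in part from how the list was made. The median length of the region was 1305 bases in that list and 960 bases over all genes. It was 774 bases long in Zfp36, 1835 in Zfp36l1 and 1822 in Zfp36l2. The part of length in these counts was not tested.

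Rhob (ENSMUSG00000054364) lies on chromosome 12, from 8497661 to 8500009 on the minus strand of GRCm38, and no other annotated gene overlaps it. It was higher after dex in the somatic cells. Soma saline libraries had 260, 279 and 303 CPM of Rhob, and soma dex libraries had 410, 441 and 403 CPM. Each of the 3 dex libraries lay above every saline library. The mean went from 281 ± 21.9 to 418 ± 20.3 CPM (SD, n = 3 each), a log2 fold change of 0.57 (SE 0.07, 95% interval 0.41 to 0.73), or 1.49-fold (edgeR quasi-likelihood test, Benjamini-Hochberg adjusted p = 0.000235). Rhob was the only one of the 6 genes that was called in the somatic cells at an adjusted p of at most 0.05, against 8.18% of the 16556 genes tested in these cells called in either direction and 4.81% called higher. Its fold change was above that of 93.8% of the tested genes.

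In the germ cells Rhob was at 8.55 ± 0.834% of the soma saline mean in saline and 6.49 ± 1.02% of the soma dex mean after dex (SD, n = 3). Germ saline libraries had 23.7, 21.8 and 26.5 CPM and germ dex libraries had 22.2, 29.9 and 29.4 CPM. The groups overlapped, with 1 dex library below 2 of the saline libraries and 2 above all 3. The log2 fold change after dex was 0.19 (95% interval -0.10 to 0.47, adjusted p = 0.624), so a rise of up to 1.39-fold lay within its interval. The germ change minus the somatic change was -0.39 (SE 0.14, 95% interval -0.70 to -0.09), with an unadjusted p of 0.0138 and an adjusted p of 0.199 over all 19390 genes (edgeR), so the difference between the cell types did not pass the correction.

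The Rhob promoter is shown because Rhob was the one gene of the 6 called after dex. RefSeq's promoter table (GRCm38.p6) held 6 promoters for 5 of the 6 genes, with 2 for Rhoa and none for Zfp36l2. Letters were searched on both strands from 250 bases before to 50 bases after the start site. A CCAAT box (CCAAT), a sequence bound by the NF-Y factor, was found at -115 and, in reverse, at -66, and both are in capitals in the sequence, which is chr12:8499960-8500259, minus strand, written 5′ to 3′.
Rhob promoter: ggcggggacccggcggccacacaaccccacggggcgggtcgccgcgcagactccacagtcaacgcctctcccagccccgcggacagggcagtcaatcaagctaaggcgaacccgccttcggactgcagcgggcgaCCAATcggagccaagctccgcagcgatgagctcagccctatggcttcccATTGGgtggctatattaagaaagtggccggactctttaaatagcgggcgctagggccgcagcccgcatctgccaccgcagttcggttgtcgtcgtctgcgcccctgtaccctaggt
The CCAAT box was present in 37.4% of the 32851 promoters in the table and in 2 of the 6, those of Rhob and Zfp36l1. The full glucocorticoid response element (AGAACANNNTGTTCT) was in 0.00913% of all promoters and its half-site (AGAACA) in 19%, and neither was in any of the 6, which says only that these letters are not in these windows.

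Zfp36 (ENSMUSG00000044786, chromosome 7, 28376784 to 28380253, minus strand) encodes tristetraprolin, the best known protein of the family. Soma saline libraries had 271, 268 and 316 CPM and soma dex libraries had 304, 371 and 292 CPM. The groups overlapped, with soma dex replicate 2 the highest of the 6. The log2 fold change was 0.17 (SE 0.10, 95% interval -0.03 to 0.38, adjusted p = 0.338), which leaves room for a rise of up to 1.3-fold. An antisense gene, Gm44710, overlaps Zfp36, and its highest count in any library was 43, against 4159 to 6589 for Zfp36 in the somatic libraries and 124 to 303 in the germ libraries. Whether strand was used in counting is not given in the sources used here, so reads of the antisense gene could not be told from those of Zfp36.

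Germ saline libraries had 8.01, 9.73 and 9.31 CPM of Zfp36, and germ dex libraries had 9.71, 19.6 and 8.39 CPM. Replicate 2 stood apart from the other germ dex libraries, which lay among the saline values. The log2 fold change was 0.48 (SE 0.27, 95% interval -0.11 to 1.08, adjusted p = 0.533), and it was 0.01 without germ dex replicate 2. The same library was the highest of the germ libraries for the summed pregranulosa markers, at 144 CPM against 32.7 to 107 in the others, and their part in its Zfp36 level was not tested. None of the 6 genes was called after dex in the germ cells (edgeR; 0 at an unadjusted p under 0.05 and 0 by DESeq2), where 0.208% of 16857 tested genes were called.

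The Zfp36 promoter is shown because it held a CArG box, the site bound by serum response factor in early response genes, which was present in 1.63% of all promoters and in no other of the 6. It began at -58 and overlapped a GC box (GGGCGG, here in reverse) that began at -63, and the joined stretch is in capitals. The GC box was in 35.7% of all promoters and in 4 of the 6. The sequence is chr7:28379179-28379478, minus strand, 5′ to 3′.
Zfp36 promoter: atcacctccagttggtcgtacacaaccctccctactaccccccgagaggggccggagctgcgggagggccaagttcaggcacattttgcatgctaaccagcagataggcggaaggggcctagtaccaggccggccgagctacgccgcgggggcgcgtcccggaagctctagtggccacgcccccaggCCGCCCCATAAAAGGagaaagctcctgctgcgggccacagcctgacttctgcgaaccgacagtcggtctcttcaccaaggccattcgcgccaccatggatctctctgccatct
The TATA box (TATAAA) was found in 2 of the 6 and in 13.6% of all promoters, and the AP-1 site (TGANTCA) in 1 of the 6, that of Zfp36l1, and in 7.81% of all.

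Zfp36l1 (ENSMUSG00000021127, chromosome 12, 80107754 to 80113013, minus strand) encodes a family protein known for roles in blood vessel and lymphocyte development. Soma saline libraries had 432, 384 and 378 CPM and soma dex libraries had 420, 397 and 385 CPM. The 2 groups overlapped throughout, and the log2 fold change of 0.01 had a 95% interval of -0.14 to 0.15 (adjusted p = 0.973), which is 0.907-fold to 1.11-fold. Germ saline libraries had 5.62, 9.21 and 7.77 CPM and germ dex libraries had 3.48, 11.8 and 7.23 CPM. The germ dex values spread more widely than the saline ones on both sides, and the interval of the log2 fold change, -0.74 to 0.75, was correspondingly wide. A processed pseudogene, Zfp36l1-ps, had at most 219 counts in a library, and how reads shared with it were counted is not given in the sources used here. The overlapping gene Gm26669 on the opposite strand had at most 67.

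Zfp36l2 (ENSMUSG00000045817, chromosome 17, 84183931 to 84187947, minus strand) encodes the family member needed in the oocyte for fertility. Soma saline libraries had 263, 261 and 266 CPM and soma dex libraries had 276, 276 and 273 CPM. Every dex library was above every saline library, yet the shift was a log2 fold change of 0.06 (95% interval -0.06 to 0.18, adjusted p = 0.623) and was not called. Germ saline libraries had 103, 89.1 and 91.5 CPM and germ dex libraries had 89, 95.6 and 95.4 CPM. These overlapped, with a log2 fold change of -0.01 (95% interval -0.17 to 0.15, adjusted p = 0.965). Zfp36l2 therefore had the narrowest interval of the 6 genes in the germ cells, 0.889-fold to 1.11-fold.

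Rhoa (ENSMUSG00000007815, chromosome 9, 108306129 to 108337934, plus strand), the most widely used of the GTPases, had 279, 277 and 293 CPM in soma saline libraries and 296, 299 and 295 CPM in soma dex libraries. The dex values lay just above the saline values, with a log2 fold change of 0.06 (95% interval -0.06 to 0.19, adjusted p = 0.6). In germ saline libraries Rhoa was at 164, 152 and 180 CPM and in germ dex libraries at 144, 167 and 159 CPM. These groups overlapped, with a log2 fold change of -0.07 (95% interval -0.24 to 0.10, adjusted p = 0.764). Rhoa overlaps Tcta on the opposite strand, whose highest count was 1089 against 2144 to 5316 for Rhoa, so some of its reads could belong to Tcta.

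Rhoc (ENSMUSG00000002233, chromosome 3, 104788375 to 104794459, plus strand), known for its part in cell motility, had 102, 100 and 114 CPM in soma saline libraries and 99.4, 119 and 105 CPM in soma dex libraries. The log2 fold change was 0.03 (95% interval -0.15 to 0.20, adjusted p = 0.895). In germ saline libraries it was at 4.2, 4.78 and 4.63 CPM and in germ dex libraries at 3.95, 6.2 and 5.25 CPM. The groups overlapped in both cell types, and the germ change of 0.19 on the log2 scale had a 95% interval of -0.29 to 0.66 (adjusted p = 0.779).

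**Figure D1:**
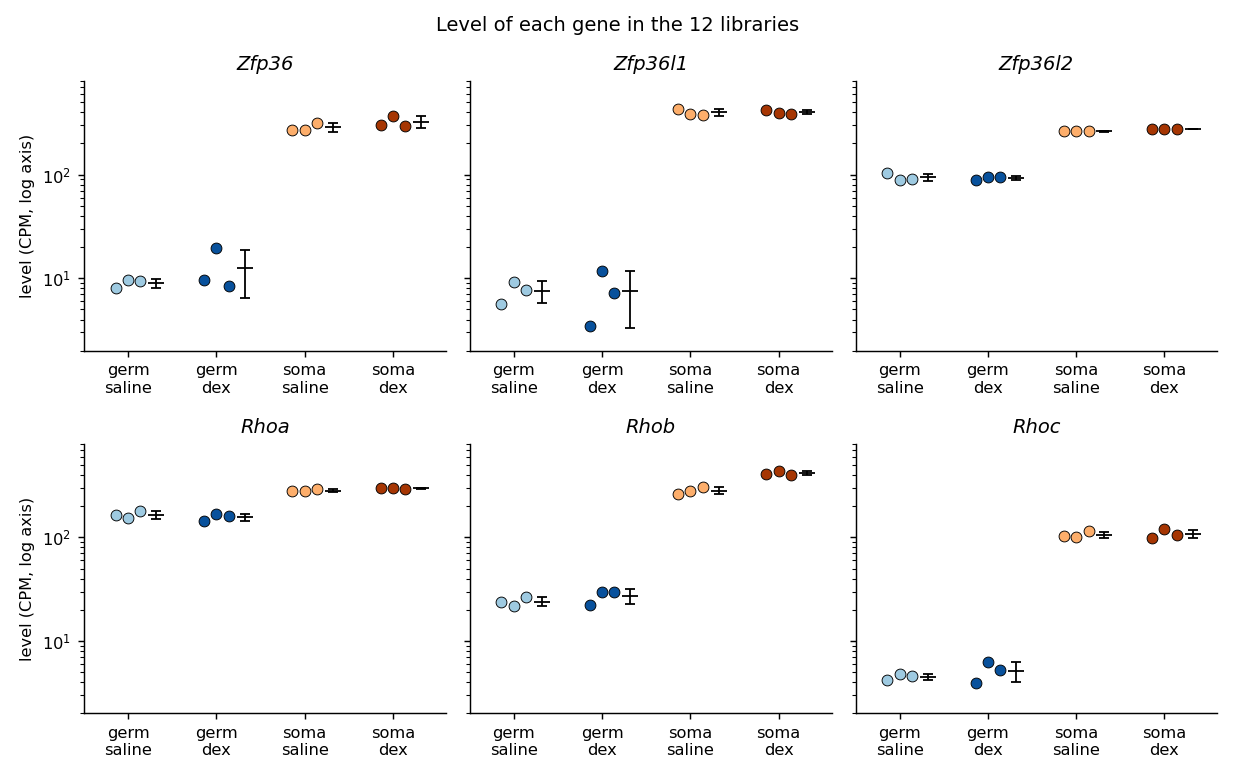
Level of each of the 6 genes in each library (CPM, log axis), with 1 point per library in 4 groups of 3 and the mean and SD drawn to the right of each group. The soma dex points of Rhob (403 to 441 CPM) sit above the soma saline points (260 to 303 CPM), and all 6 genes sit lower in germ than in somatic libraries.

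**Figure D2:**
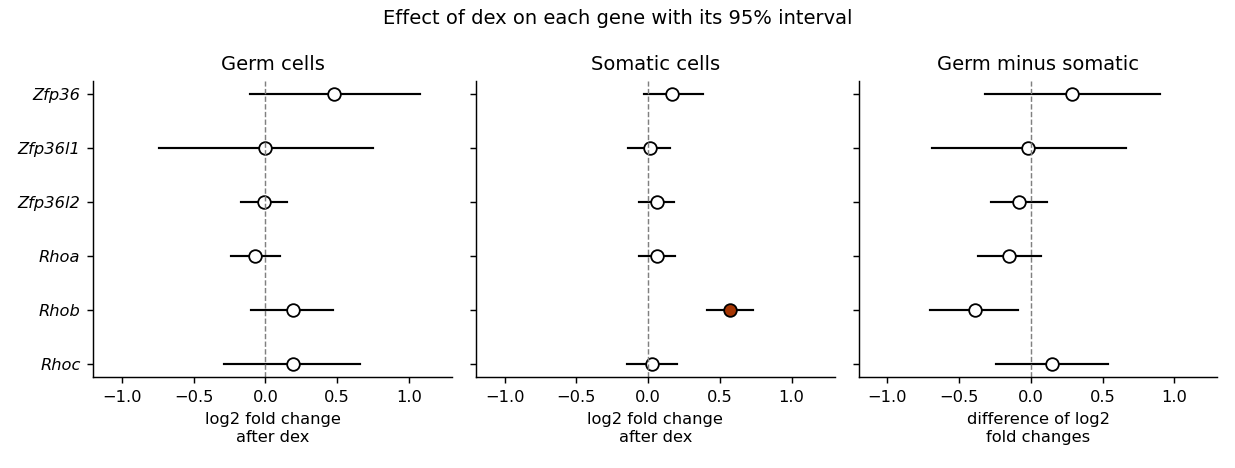
Log2 fold change after dex of each gene in germ cells and in somatic cells, and the germ change minus the somatic change, with 95% intervals. The filled point is the one gene called at an adjusted p of at most 0.05, Rhob in somatic cells, at 0.57.

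The test of the difference between the cell types called none of the 6 genes (edgeR; 1 at an unadjusted p under 0.05, Rhob, and 0 by DESeq2), where 1.62% of genes were called. Zfp36 had a difference of 0.29 (95% interval -0.32 to 0.90) and Zfp36l1 of -0.02 (95% interval -0.69 to 0.66) on the log2 scale. For these the germ counts were low, at 124 to 303 fragments for Zfp36 and 52 to 183 for Zfp36l1 per library. Zfp36l2 and Rhoa, with 1329 to 1637 and 2144 to 3155 germ fragments per library, had narrower intervals, -0.28 to 0.11 and -0.37 to 0.07.

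All 6 genes were lower in germ cells than in somatic cells, in saline and after dex, with no overlap between the libraries of the cell types. Lower levels in germ cells were called for 42.9% of 17941 genes in saline and for 42.2% of 18171 genes after dex, so the direction was a common one. The share of all genes without overlap was not counted. Under the alternatives run, 15283 to 18182 genes were called in either direction in saline. TMM scaling takes most genes as unchanged, so the folds below are relative and depend on the scaling. Under the same alternatives the saline log2 difference was -0.84 to -0.70 for Rhoa and -1.54 to -1.42 for Zfp36l2. The sizes fell in 2 ranges. In saline, the somatic level of Zfp36l1 was 52.1-fold that of germ cells, of Zfp36 31.3-fold, of Rhoc 23-fold and of Rhob 11.6-fold. The somatic level of Zfp36l2 was only 2.76-fold and of Rhoa 1.7-fold that of germ cells (log2 difference -1.47, SE 0.07, and -0.76, SE 0.08; adjusted p = 6.3e-11 and 2.57e-07, edgeR). After dex the same folds were 53.7 for Zfp36l1, 26 for Zfp36, 21.2 for Rhoc, 15.6 for Rhob, 2.98 for Zfp36l2 and 1.92 for Rhoa. Among all tested genes, the saline log2 difference of Zfp36l1 was below that of all but 3.58%, and that of Rhoa was below all but 37.3%. In bulk samples, fewer cells of a type and less RNA per cell could not be told apart.

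Markers of somatic cell types were measured at the same scale, because a few somatic cells in the germ sort would add somatic messages. Zfp36l1 in germ saline libraries was at 1.41, 2.31 and 1.95% of the soma saline mean, and Zfp36 at 2.81, 3.41 and 3.27%. The summed pregranulosa markers were at 2.65, 4.77 and 5.44% in the same libraries, the stromal markers at 0.539, 0.877 and 0.828%, the endothelial markers at 14.6, 14.1 and 12.8%, and the macrophage markers at 17, 13.6 and 16%. A few markers carried the endothelial and macrophage sums, since the median marker was at 1.15, 4.43 and 2.25% and at 2.6, 6.7 and 4%, against 3.11, 5.74 and 5.24% for pregranulosa markers. Zfp36l1, Zfp36 and Rhoc (3.98, 4.53 and 4.39%) therefore lay within the range spanned by markers of cells that the gate should have removed. In germ dex libraries Zfp36l1 was at 0.868, 2.95 and 1.8%, and the pregranulosa sum at 2.33, 10.2 and 7.57%, both highest in replicate 2. The part of such cells in the germ levels of Zfp36, Zfp36l1 and Rhoc was not tested. Zfp36l2, at 39.3, 33.8 and 34.8% in germ saline libraries, and Rhoa, at 57.9, 53.7 and 63.7%, lay above every marker sum in the saline libraries. After dex the macrophage sum was at 41.9, 38.3 and 30.7%, its somatic mean being lower, which overlapped Zfp36l2 at 32.3, 34.7 and 34.7% but not Rhoa at 48.4, 56.2 and 53.6%. Rhob, at 8.45, 7.77 and 9.43%, was between the pregranulosa and the endothelial sums in saline, and above the median marker of each of these lists. After dex Rhob was at 5.31, 7.14 and 7.03%, with the median pregranulosa marker at 3.22, 11.7 and 8.78%. It lay above that marker and the pregranulosa sum in replicate 1 and below both in replicates 2 and 3. The part of such cells in the germ levels of Rhob was not tested either.

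**Figure D3:**
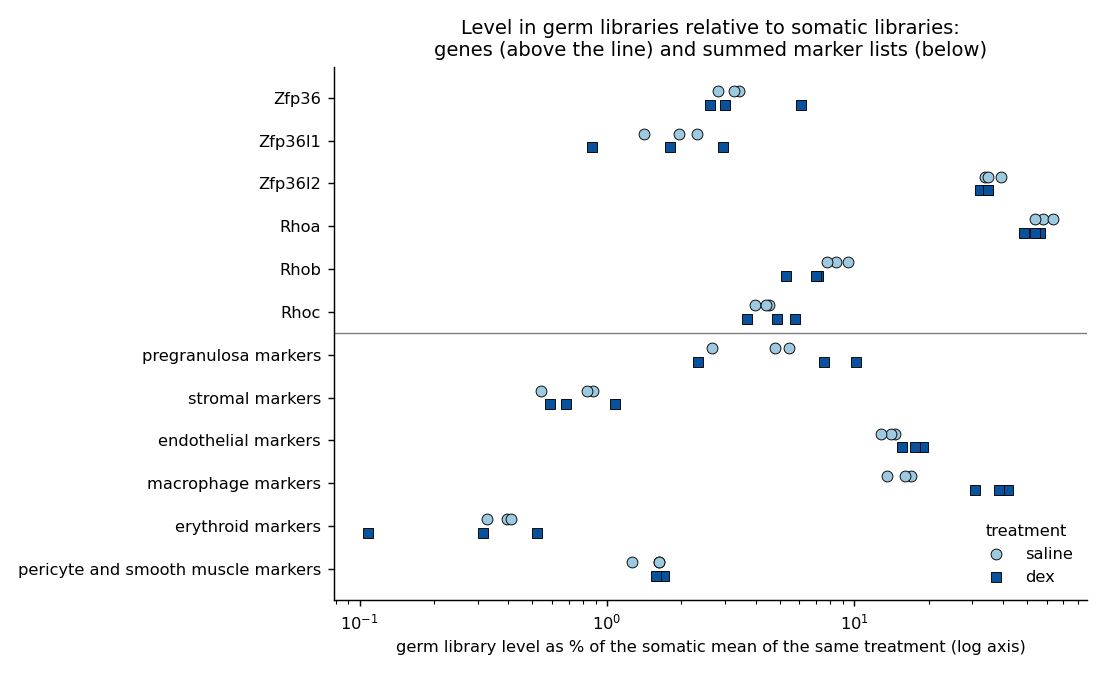
Level in each germ library as a percent of the mean of the 3 somatic libraries of the same treatment (log axis), for the 6 genes above the line and the summed marker lists below it, with circles for saline and squares for dex. Zfp36l2 and Rhoa (33.8 to 63.7% in saline) sit to the right of every saline marker sum, and the saline points of Zfp36, Zfp36l1 and Rhoc sit between the stromal and the endothelial sums.

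Per unit of length, the order of the genes differed between the cell types. The length was the annotated exon length, 7494 bases for Rhoa, 2349 for Rhob and 1618 for Rhoc. It was 3470 bases for Zfp36, 2990 for Zfp36l1 and 3530 for Zfp36l2. Before division by length, Rhoa and Rhob were at 283 and 281 CPM in soma saline libraries. Whether the expressed transcripts have these lengths was not tested, so the order within a group rests on them. In soma saline libraries the FPKM means were 129 ± 9.94 for Zfp36l1, 116 ± 8.99 for Rhob, 79.7 ± 7.58 for Zfp36, 72.4 ± 0.815 for Zfp36l2, 63.2 ± 4.53 for Rhoc and 36.6 ± 1.16 for Rhoa (SD, n = 3). Zfp36l1 and Rhob overlapped each other, and no other neighbours in that order did. In soma dex libraries Rhob was first, at 172 ± 9.55 FPKM, followed by Zfp36l1 at 130 ± 6.37, and no neighbours overlapped. In germ saline libraries the order was Zfp36l2 at 27.1 ± 2.18, Rhoa at 22.3 ± 2.11, Rhob at 10.3 ± 1.09, and then Rhoc, Zfp36 and Zfp36l1 at 2.83, 2.63 and 2.55 FPKM. The last 3 overlapped with their neighbours, in saline and after dex.

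By FPKM, Zfp36l2 made up most of the family's message in germ cells and Zfp36l1 was the largest part in somatic cells. All shares rest on the same annotated exon lengths, of which that of Rhoa was the longest among the 6 genes. Of the summed FPKM of the 3 Zfp36 genes, Zfp36l2 held 83.9 ± 3.28% in germ saline and 81.7 ± 6.85% in germ dex libraries, and 25.8 ± 0.684% and 25.6 ± 1.04% in the somatic groups (SD, n = 3). Zfp36l1 held 45.9 ± 2.75% in soma saline and 44 ± 2.07% in soma dex libraries. The family sum was 32.3 ± 1.32 FPKM in germ saline libraries and 281 ± 9.59 FPKM in soma saline libraries. Of Rhoa, Rhob and Rhoc summed, Rhoa held 62.9 ± 0.472% in germ saline and 17 ± 0.63% in soma saline libraries. Rhob went from 53.7 ± 1.13% in soma saline to 62.7 ± 0.613% in soma dex libraries, with no overlap between the libraries (52.4 to 54.5% and 62.2 to 63.4%).

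**Figure D4:**
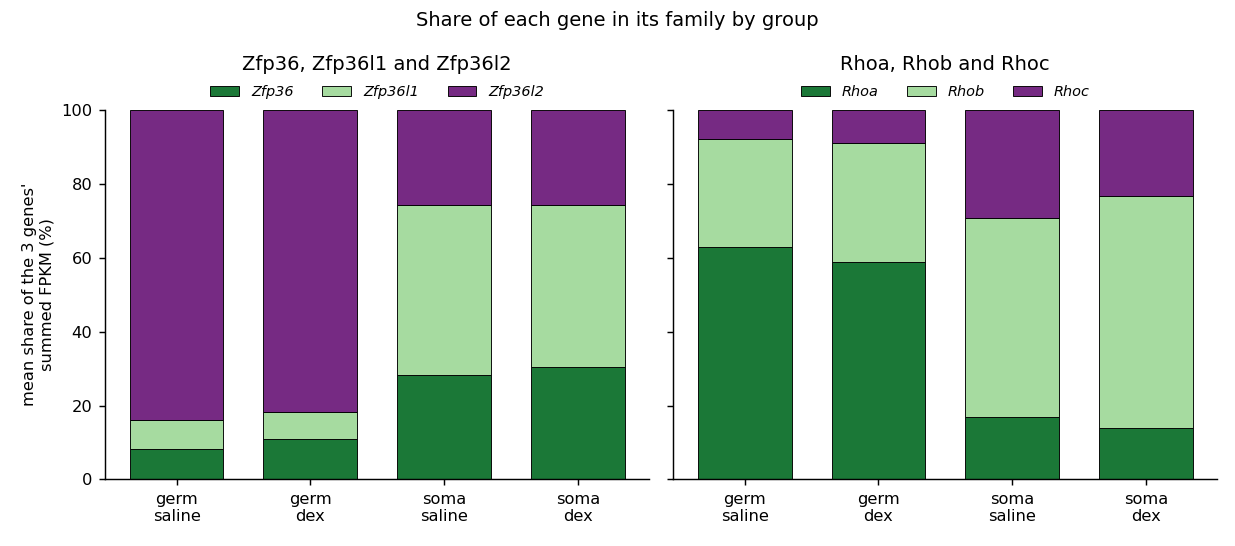
Mean share of each gene in the summed FPKM of its 3-gene family, in percent, for the 4 groups. The shares within a group rest on the annotated exon lengths. Zfp36l2 takes 83.9% of its family in germ saline and 25.8% in soma saline libraries, and Rhob grows from 53.7% to 62.7% of its family in somatic cells after dex.

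The genes whose log2 CPM followed each of the 6 most closely over the 12 libraries are given as a description only, since the split between 2 cell types sets most of each correlation. Of 16146 genes compared, between 136 (Rhoa) and 1571 (Rhoc) had a Pearson r of at least 0.99. For Rhob the closest were Twsg1 (r = 0.9985), Rassf2 (0.9984) and Ets2 (0.9982). All 3 had higher means in soma dex than in soma saline libraries, 535 against 348 CPM for Twsg1, 177 against 97.7 CPM for Rassf2 and 123 against 95.6 CPM for Ets2. For Zfp36 the closest were Itga9 (0.9982), Hk1 (0.9981) and Maml2 (0.9980), and for Zfp36l1 they were Gusb (0.9987), Tceal9 (0.9986) and Vim (0.9986). Zfp36l2 was closest to Mfsd10 (0.9990), Gpx7 (0.9989) and Vgll4 (0.9989), Rhoa to Ppt1 (0.9958), Smim7 (0.9955) and Rab11b (0.9955), and Rhoc to Cd81, Ptk7 and Tceal8 (0.9994 each). None of the 6 was among the 3 closest genes of another.

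The decay machinery was read against 8.18% of all tested genes called in somatic cells and 0.208% in germ cells. None of the 11 CCR4-NOT deadenylase genes was called in either cell type, with median log2 fold changes of -0.06 in germ cells and 0.01 in somatic cells, against medians over all genes of 0.01 and 0.00. None of 20 other deadenylation and decapping genes and none of 15 kinases, phosphatases and adaptors that act on ZFP36 proteins was called in either cell type. Pabpc1, the poly(A) binding protein, was called only for the difference between the cell types, at -0.45 on the log2 scale (adjusted p = 0.0207, edgeR), with changes of -0.28 in germ cells (adjusted p = 0.138) and 0.16 in somatic cells (adjusted p = 0.136). Of 14 other AU-rich element binding proteins tested in somatic cells, Celf2 was higher after dex, from 174 ± 4.02 to 213 ± 7.91 CPM (log2 fold change 0.29, adjusted p = 0.00846, edgeR), a call lost without soma saline replicate 2 (adjusted p = 0.0576).

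Transcripts that ZFP36 proteins are known to bind moved in both directions. In somatic cells 4 of 31 tested were higher after dex (Bcl2, E2f1, Fos and Ptgs2) and 6 were lower, among them Ccl3, Cxcl2, Il1b, Plk3 and Tnf, with a median log2 fold change of -0.04. Over all tested genes 8.18% were called in these cells and 4.81% were called higher. Ptgs2, the inducible enzyme of prostaglandin synthesis, went from 4.59 ± 1.15 to 10.2 ± 1.13 CPM (log2 fold change 1.15, SE 0.21, adjusted p = 0.00375). E2f1, a cell cycle factor, went from 43.7 ± 2.28 to 79.9 ± 7.93 CPM, and Bcl2, an inhibitor of apoptosis, from 46.2 ± 5.35 to 84.3 ± 2.16 CPM, 1.82-fold each (adjusted p = 1.6e-05 and 2.24e-05). Of the cytokine genes in the list, Ccl3, Cxcl2, Il1b and Tnf were called lower, while Ccl2, Cxcl1 and Lif, named after their values were seen, had log2 fold changes of -1.60, -0.80 and -0.56 that did not pass (adjusted p = 0.0635, 0.16 and 0.709). Il1b went from 8.38 ± 0.996 to 3.06 ± 1.3 CPM (log2 fold change -1.45, SE 0.28, adjusted p = 0.00598), Tnf from 15.8 ± 5.07 to 6.64 ± 3.16 CPM (adjusted p = 0.0273, and up to 0.146 with 1 library left out) and Ccl3 from 7.52 ± 2.06 to 1.83 ± 0.964 CPM (adjusted p = 0.00213).

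Macrophage markers were lower in the same somatic libraries as these 4 cytokine genes. The 11 markers summed to 220, 274 and 292 CPM in soma saline libraries and to 63.2, 156 and 148 CPM in soma dex libraries. Of the 11, 7 were called lower (Adgre1, Cd68, Csf1r, Cx3cr1, Fcgr1, Mrc1 and Tyrobp), against 8.18% of all tested genes called in either direction. None of the markers was at 0 in all 3 libraries, and their median log2 fold change was -1.02. Replicate 1 was lowest of the soma dex libraries for the macrophage sum, and also for Il1b (1.63 CPM), Tnf (3.14 CPM) and Ccl3 (0.967 CPM). The part of these markers in the lower levels of the cytokine genes was not tested. Rhob was at 410 CPM in that library against 441 and 403 CPM in the other two, and Zfp36 was at 304 CPM against 371 and 292 CPM.

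In germ cells 1 of 28 tested AU-rich transcripts was called, against 0.208% of all tested genes. This was Nfkbia, which encodes an inhibitor of NF-kB and is also a known target of the glucocorticoid receptor. It was at 18.7, 18.9 and 21.2 CPM in germ saline libraries and at 39, 39.7 and 37 CPM in germ dex libraries, which did not overlap. The log2 fold change was 0.99 (SE 0.10, adjusted p = 0.00133), or 1.98-fold, and it differed from that in somatic cells by 0.88 (adjusted p = 0.000865, edgeR). Across all genes with an annotated 3′ untranslated region, 8.8% of 9934 tested genes without the heptamer, 9.09% of 2773 with 1 and 10.9% of 1563 with 2 or more were called in somatic cells. The median length of that region rose over the same classes, from 869 to 1857 and 2805 bases, and the part of length in those shares was not tested.

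Zfp36 and Rhob both belong to the genes that respond within minutes to stimuli and to tissue dissociation, so the other early response genes were read alongside. In somatic cells 6 of 27 were higher after dex (Ctgf, Cyr61, Egr1, Fos, Gadd45g and Maff), none was lower, and the median log2 fold change was 0.18, against 4.81% of all tested genes called higher. Maff, a small bZIP factor, went from 29 ± 4.3 to 80.9 ± 4.2 CPM (2.78-fold, adjusted p = 6.09e-07), Ctgf from 29.3 ± 3.71 to 43.6 ± 1.96 CPM (1.49-fold, adjusted p = 0.00349) and Fos from 1007 ± 108 to 1479 ± 229 CPM (1.47-fold, adjusted p = 0.00511). The 27 genes summed to between 7346 and 7857 CPM in soma saline libraries and to between 8474 and 9648 CPM in soma dex libraries. Soma dex replicate 2 had the highest sum, the highest Fos (1733 CPM), the highest Zfp36 and the highest Rhob. In germ libraries the sum was 296, 390 and 347 CPM in saline and 318, 448 and 421 CPM after dex. None of the 27 was called, where 0.208% of all tested genes were. Of the 27, 23 had a log2 fold change above 0, with a median of 0.32 against 0.01 over all tested genes. All 10 pregranulosa markers also had germ changes above 0, with a median of 0.47 and none called. The part of handling in the levels of Rhob and Zfp36 was not tested, nor was that of somatic cells in the germ values.

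Known targets of the glucocorticoid receptor were mostly called higher after dex in somatic cells, 16 of 19 tested, against 4.81% of all tested genes. Their median log2 fold change was 0.97. Rhob, at 0.57, was below that median. Zbtb16, a zinc finger repressor, went from 0.559 ± 0.331 to 70.1 ± 13.6 CPM (122-fold), Klf9 from 8.79 ± 1.08 to 79.1 ± 11 CPM (8.96-fold) and Cebpd from 16 ± 1.11 to 76.7 ± 11.5 CPM (4.77-fold). In germ cells 4 of 18 were called, all higher (Hif3a, Nfkbia, Per1 and Zbtb16), against 0.208% of all tested genes, with a median of 0.51. The call of Zbtb16 was lost without germ dex replicate 2 (adjusted p = 0.145), germ dex replicate 3 (0.112) or germ saline replicate 3 (0.144). Per1, a clock gene, was at 15.7, 13.2 and 14.2 CPM in germ saline libraries and at 63.9, 57.4 and 39.6 CPM in germ dex libraries (3.76-fold, adjusted p = 0.000906). Hif3a went from 7.54 ± 0.143 to 19.1 ± 2.87 CPM in germ cells (2.54-fold, adjusted p = 0.00279). Zbtb16 was at 1.94, 4.39 and 4.37 CPM in germ dex libraries, against 76.8, 79 and 54.5 CPM in soma dex libraries. Hif3a was at 182, 186 and 170 CPM in soma saline and 515, 504 and 462 CPM in soma dex libraries. The part of somatic cells in the germ sort in these germ changes was not tested. The lists share genes, among them Nfkbia, Fos and Gadd45g, so their counts are not separate. They were also chosen with earlier results of these data known, so the counts of called targets are a description only.

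Regulators and effectors of RHOA, RHOB and RHOC were read as 5 lists, against 8.18% of all tested genes called in somatic cells and 0.208% in germ cells. Of 18 related small GTPases tested in somatic cells, 1 was called, Rnd3, a GTPase that does not hydrolyse GTP and opposes RHOA signalling, at 146 ± 1.22 CPM in saline and 180 ± 16.2 CPM after dex (log2 fold change 0.30, adjusted p = 0.0202). The call was lost when any 1 library except soma dex replicate 3 was left out (adjusted p of 0.0766 to 0.114). None of 9 GDP dissociation inhibitors and prenylation enzymes was called in either cell type. Of 20 exchange factors, which load GTP, Akap13 was higher in somatic cells, at 154, 157 and 148 CPM in saline and 219, 225 and 217 CPM after dex (1.44-fold, adjusted p = 9.74e-05), and Plekhg5 was lower, from 53.3 ± 3.49 to 43 ± 2.77 CPM (adjusted p = 0.0273, and up to 0.124 with 1 library left out). In germ cells 1 of 21 was called, Arhgef37, named after its values were seen because it was the only one. It was at 0.129, 0.175 and 0.114 CPM in germ saline libraries, at or near the limit of 3 counts, and at 2.68, 2.78 and 1.75 CPM in germ dex libraries (adjusted p = 0.00306).

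Of 21 GTPase activating proteins, which switch these GTPases off, 1 was higher and 2 were lower in somatic cells. Dlc1, an activating protein for RHOA, RHOB and RHOC, was at 172, 166 and 154 CPM in soma saline libraries and 255, 228 and 205 CPM in soma dex libraries, with no overlap (1.39-fold, adjusted p = 0.00185). Its relative Stard8 went from 19.8 ± 0.591 to 12.9 ± 1.71 CPM (adjusted p = 0.00984, and 0.0507 without soma saline replicate 3) and Arhgap20 from 105 ± 12.8 to 72.7 ± 8.5 CPM (adjusted p = 0.00385). Of 22 effectors, Daam1 and Pkn2 were higher, at 1.27-fold (adjusted p = 0.0179) and 1.17-fold (adjusted p = 0.0362), and Diaph1, a formin that builds actin filaments, was lower, from 48 ± 4.13 to 38.3 ± 1.07 CPM (adjusted p = 0.0307). With 1 library left out, the adjusted p reached 0.103 for Daam1, 0.129 for Pkn2 and 0.147 for Diaph1. None of the activating proteins or effectors was called after dex in germ cells.

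**Figure D5:**
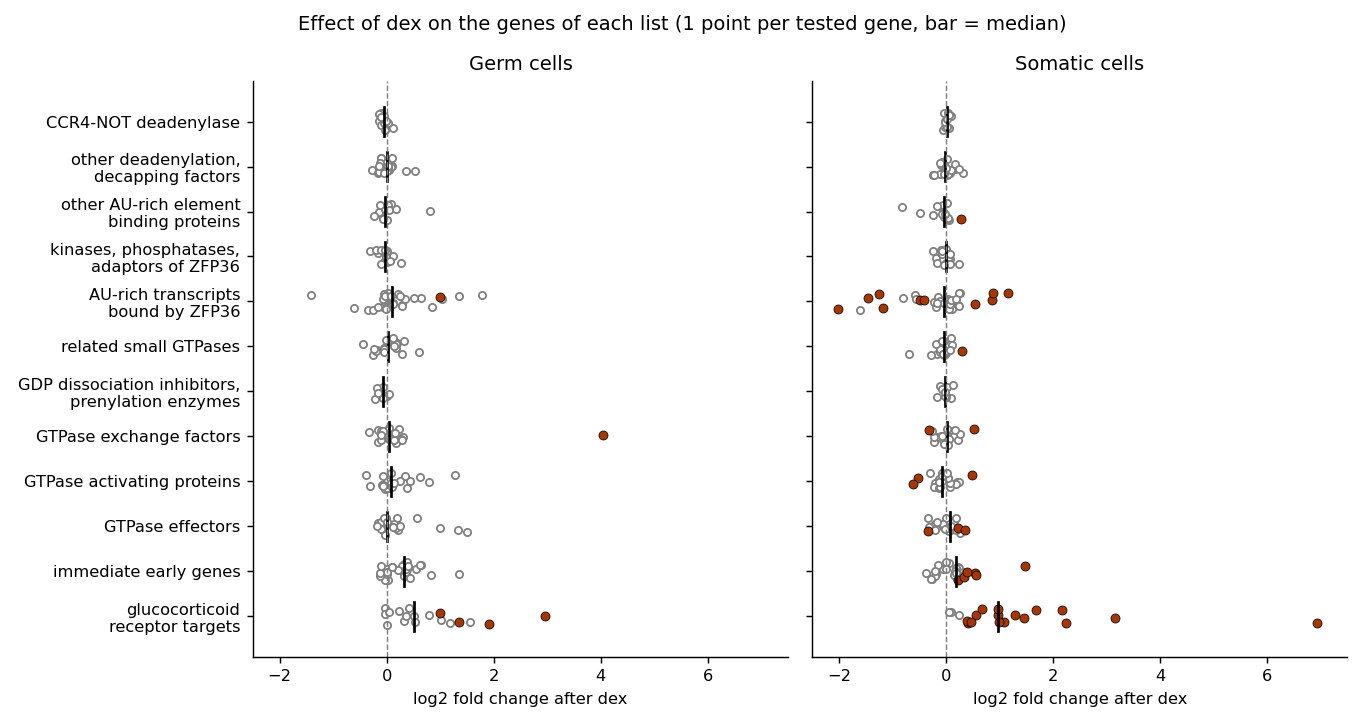
Log2 fold change after dex of each tested gene of the 12 lists in germ cells and in somatic cells, with filled points for genes called at an adjusted p of at most 0.05 and a bar at each list's median. The glucocorticoid receptor targets lie furthest to the right in somatic cells (median 0.97, 16 of 19 called), and the CCR4-NOT genes lie close to 0 (median 0.01, none called).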

How the data were processed

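Per the labels and the study's methods, polyadenylated RNA was fragmented and primed with random hexamers, read pairs were aligned to mm10 with HISAT2 2.0.5, and the authors deposited whole-number counts per gene made with featureCounts 1.5.0-p3. The authors also deposited FPKM values, which divide the counts by gene length and library depth. Settings for strand and for reads with several matches are not given in the sources used here. A further pair of tables was not used, since they hold the authors' own fold changes and p-values from DESeq2 1.20.0.

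Counts were tested with edgeR 4.0.16 in R 4.3.3 (filterByExpr, TMM, quasi-likelihood test, adjusted p of at most 0.05 after Benjamini-Hochberg over all genes tested). Each comparison was fitted on its own 6 libraries, and the difference of the dex effects on all 12. The fits were tested on simulated data. Intervals are 95% and rest on 3 libraries a group. Each library is a pool, and p-values measure the spread between pools. Libraries held 14658503 to 18245507 counts, and 3 counts correspond to 0.169 to 0.201 CPM. FPKM were used only for levels between genes. All libraries of a group differed by more than sampling noise.

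The 6 genes and all lists were chosen with earlier results of these data known. From each list, called genes were named if they averaged 1 CPM or more and showed no overlap between dex and saline libraries, at most the 3 largest rises and 3 largest falls per cell type. The 3 genes closest to each of the 6 by Pearson correlation of log2 CPM (prior count 2) were named too. Genes named beyond that rule were chosen after their values were seen, namely other called members of a list, and a called gene is not reported here. All 6 genes passed the filter in every comparison. Gene coordinates were the same in the count table and in GENCODE M21. Alternatives were other scalings (RLE, upper quartile), DESeq2 1.42.0, no filter on low counts, the replicate number as a block, all 12 libraries in 1 fit, and each library left out in turn.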

Additional observations from a re-analysis of the deposited data

Results flagged for a closer look

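Of the genes named from the lists by the rule, 10 had a dex effect that differed between germ and somatic cells in the test of the difference (edgeR, adjusted p of at most 0.05 over 19390 genes). Over all those genes 1.62% were called. The rule took genes already called after dex in germ or somatic cells of the same libraries. That choice favours a called difference, so the count of 10 is a description only. Values are the germ change minus the somatic change on the log2 scale.

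For 7 of them the difference was below 0, with a somatic level called higher after dex and a germ change that was smaller or had the opposite sign. The difference was -3.99 for Zbtb16 (adjusted p = 0.00913), -2.95 for Klf9 (adjusted p = 1.6e-06) and -1.75 for Cebpd (adjusted p = 0.000174), which are targets of the glucocorticoid receptor. It was -0.81 for E2f1 (adjusted p = 0.00376) and -0.76 for Bcl2 (adjusted p = 0.0398), which are AU-rich transcripts. It was -0.88 for Dlc1 (adjusted p = 0.0241), whose germ change was -0.39 and did not pass the test, and -0.45 for Celf2 (adjusted p = 0.0132), whose germ change was -0.15 and did not pass it either.

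For the other 3 the difference was above 0. It was 2.47 for Il1b (adjusted p = 0.00477), at 2, 1.75 and 1.77 CPM in germ saline libraries and 3.82, 4.26 and 3.15 CPM in germ dex libraries, with a germ change of 1.03 that was not called (adjusted p = 0.164). All 11 macrophage markers, whose sum was lower in soma dex libraries, also had differences above 0. Their median difference was 1.48 and none was called. The part of these markers in the Il1b difference was not tested. The difference was 0.88 for Nfkbia (adjusted p = 0.000865), the one of the 3 genes called after dex in germ cells and not in somatic cells. It was 0.99 for Stard8 (adjusted p = 0.0386).

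With 1 library left out, the difference was no longer called for Bcl2 (adjusted p up to 0.115), Dlc1 (up to 0.093), Stard8 (up to 0.106) and Zbtb16 (0.072, without germ saline replicate 2). Pabpc1, named outside the rule, also differed, by -0.45 (adjusted p = 0.0207). None of Zfp36, Zfp36l1, Zfp36l2, Rhoa, Rhob and Rhoc was called for the difference. Groups of 3 libraries were too small for a check of single libraries that stand apart.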

How the results depend on the processing

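The count of the 6 genes called stayed at 0 in germ cells, 1 in somatic cells, 0 for the difference and 6 in both comparisons of germ with somatic cells under every alternative run. The somatic Rhob change ranged from 0.51 to 0.63 (adjusted p of 1.16e-13 to 0.00332, the highest without soma saline replicate 1), and the Rhob difference from -0.46 to -0.26 (adjusted p of 0.0661 to 0.412). Of 390 values of the 6 genes under alternatives, 361 kept direction and side of the threshold. The other 29 changed sign, and none of them was called in either fit. In germ cells Zfp36l1 was -0.0017 with RLE factors, -0.01 with DESeq2, without the filter and with all 12 libraries, -0.09 with the replicate block, and -0.48 to 0.33 with 1 library left out. Germ Zfp36l2 was 0.0048 with upper quartile scaling and -0.06 to 0.05 with 1 library left out. In somatic cells Zfp36l1 was -0.02 with upper quartile scaling, -0.0031 without the filter and -0.03 to 0.06 with 1 library left out, and Rhoc was -8.3e-05 with upper quartile scaling and -0.06 to 0.08 with 1 left out. For the difference, Zfp36l1 was 0.04 with upper quartile scaling and -0.47 to 0.32 with 1 left out, and Zfp36 was -0.16 to 0.53, below 0 only without germ dex replicate 2.

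Counts over all genes moved more. In germ cells 35 genes were called, 158 with DESeq2, 420 without the filter, 64 with all 12 libraries, and 17 to 81 with 1 library left out (81 without germ dex replicate 1, 17 without germ dex replicate 2 or germ saline replicate 3). In somatic cells 1354 were called, 803 with all 12 libraries, and 754 to 1881 with 1 left out, moving by over 1.5 times without soma dex replicate 2 (856) or soma saline replicate 1 (888), 2 (756) or 3 (754). For the difference 314 were called, 620 with DESeq2, 727 without the filter, and 143 to 384 with 1 left out, moving by over 1.5 times without germ dex replicate 2 (178) or 3 (188), germ saline replicate 3 (169), soma dex replicate 1 (201) or 2 (182), or soma saline replicate 2 (167) or 3 (143). The causes were not tested.

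Replicate numbers are shared by the groups, but same-numbered libraries did not deviate together throughout (r of their deviations 0.197, 0.0267 and 0.0493 between germ dex and germ saline, and 0.0921, -0.0156 and 0.0433 between the somatic groups). Between germ and somatic cells each library correlated best with its own number (r of 0.0676 to 0.107). The study sorted both cell types from digested ovaries, but the sources used here do not state that same-numbered libraries shared a pool. The main tests of germ against somatic cells and of the difference did not use such a pairing. In the dex comparisons and in the difference, the replicate block paired dex and saline libraries of the same number within a cell type. Pairing between germ and somatic cells was therefore not modelled in the difference. With this block 49 genes were called in germ cells, 1520 in somatic cells and 389 for the difference. The somatic Rhob change was 0.57, and the difference of Stard8 was no longer called (adjusted p = 0.0589).

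Among the named list genes, somatic calls lost without 1 library were those of Celf2 (soma saline replicate 2), Tnf (soma dex replicate 2, soma saline replicates 2 and 3), Plekhg5 (soma dex replicate 2, all soma saline replicates), Stard8 (soma saline replicate 3), Daam1 (soma dex replicate 2, soma saline replicate 2), Diaph1 (soma dex replicates 1 and 2, soma saline replicates 2 and 3), and Rnd3 and Pkn2 (each library except soma dex replicate 3). With all 12 libraries in the fit, the somatic calls of Ptgs2 (adjusted p = 0.0706), Fos (0.158), Tnf (0.0619), Rnd3 (0.13), Daam1 (0.0616), Pkn2 (0.084) and Diaph1 (0.0603) were lost as well. The call of Tnf was also lost with DESeq2 (0.127), that of Pkn2 with upper quartile scaling (0.0631) and without the filter (0.06), and that of the Bcl2 difference with upper quartile scaling (0.0689). Germ counts of 52 to 303 fragments per library for Zfp36 and Zfp36l1 limit what could be seen there.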
